A study of Mus musculus with 12 samples.

Results

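Genomic imprinting leaves one parental copy of a gene active and the other silent, and the choice is carried by DNA methylation set in the germ line, with Polycomb proteins and non-coding RNAs acting at some domains. Many imprinted genes act on growth: as a rule of thumb, genes expressed from the maternal copy restrain growth of the fetus and placenta, and genes expressed from the paternal copy promote it. Polycomb repressive complex 1 (PRC1), whose Ring1A and Ring1B subunits ubiquitylate histone H2A, has been tied to the silent copies of the *Kcnq1* domain in extraembryonic cells. Here 10 imprinted genes were followed in mouse embryonic stem cells (ESCs) that lost endogenous Ring1B: the *Kcnq1* domain genes *Cdkn1c*, *Phlda2* and *Slc22a18*, the growth factor gene *Igf2* with *H19*, *Igf2r* and *Grb10*, and the genes *Plagl1*, *Peg3* and *Mest*. The genes were chosen by name, with earlier results of these data known. They were read by every probe set annotated to their symbols, 22 of 45037 probe sets. Of these 22, 20 named a member alone, and 17 of the 20 passed a filter on low values, which asked for a highest signal above 3.94 on the log2 scale. The 17 probe sets stand for 9 of the 10 genes, all but *H19*. Array signals do not tell the parental copies apart, so a change below is a change of total RNA and says nothing about which copy was read.

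RNA came from 12 arrays of 6 ESC lines of a 129/B6 hybrid background, all *Ring1A-/-;Ring1B fl/fl;Rosa26::CreERT2*. Each line had 1 array on day 2 of OHT treatment (800 nM 4-hydroxytamoxifen for 24 hours, which activates CreERT2 and deletes *Ring1B*) and 1 array before OHT. The 3 mutant lines were stably transfected with Ring1B (I53S) (lines #1 and #4) or Ring1B (I53A) (line #1), forms of Ring1B changed in the RING domain that carries its E3 ligase activity. The mock line carried an empty vector and is a single line. The 2 WT lines (#1 and #3) carried WT Ring1B and are the reference. All cells, also before OHT, lacked Ring1A, and the constructs were driven by a constitutive CAG promoter, so before OHT the cells held endogenous Ring1B beside any construct. Each line is 1 transfectant selected with puromycin, and the cells were grown on irradiated embryonic fibroblasts or on gelatin, without the labels saying which array had which. Undifferentiated ESC markers were present on every array, at a median log2 signal of 11.51 to 11.98 on day 2 and 11.71 to 11.85 before OHT. P-values measure the spread between these lines. The targeted genes changed by -0.09 (*Rnf2*, for Ring1B) and 0.16 (*Ring1*, for Ring1A) across mutant lines (adjusted p = 0.722 and 0.593 from limma). In the mock line, which carried no Ring1B construct, *Rnf2* changed by -0.26. Whether the probe sets of these genes lie in the deleted exons, and whether those of *Rnf2* also read the constructs, is not known here. The labels are not checked by these genes.

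Promoters were taken from RefSeq (build GRCm38.p6), whose table holds 8 of the 10 members. Those of 3 called genes with a single start are shown, as 2 of them moved together and 1 the opposite way. Each runs from 250 bases before to 50 bases after the start, with each CG in capitals. *Plagl1* (chr10:13090582-13090881, plus strand) and *Phlda2* (chr7:143502475-143502774, minus strand) were higher on day 2 in the mutant lines, and *Peg3* (chr7:6730370-6730669, minus strand) was lower.

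Plagl1: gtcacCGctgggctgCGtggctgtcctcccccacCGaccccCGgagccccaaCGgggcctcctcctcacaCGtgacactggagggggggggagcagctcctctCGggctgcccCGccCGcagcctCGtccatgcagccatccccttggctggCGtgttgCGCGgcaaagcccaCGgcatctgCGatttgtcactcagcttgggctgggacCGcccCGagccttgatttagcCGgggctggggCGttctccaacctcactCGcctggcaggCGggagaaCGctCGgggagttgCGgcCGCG

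Phlda2: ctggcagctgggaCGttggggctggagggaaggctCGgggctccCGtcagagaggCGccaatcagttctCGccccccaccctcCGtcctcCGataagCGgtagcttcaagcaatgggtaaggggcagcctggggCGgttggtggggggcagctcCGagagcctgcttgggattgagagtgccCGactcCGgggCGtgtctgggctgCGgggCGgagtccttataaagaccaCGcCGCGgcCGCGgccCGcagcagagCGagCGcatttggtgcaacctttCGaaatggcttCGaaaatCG

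Peg3: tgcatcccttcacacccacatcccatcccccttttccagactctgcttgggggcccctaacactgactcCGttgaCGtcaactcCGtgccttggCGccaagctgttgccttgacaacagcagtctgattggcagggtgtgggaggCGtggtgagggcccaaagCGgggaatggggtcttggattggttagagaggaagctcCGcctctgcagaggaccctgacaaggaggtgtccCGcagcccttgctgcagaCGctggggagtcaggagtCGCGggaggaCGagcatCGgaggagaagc

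The windows of *Plagl1* and *Phlda2* hold 26 CG each, a number reached by 16.9% of 32851 promoter windows of 300 bases, whose median is 7. The *Peg3* window holds 13 CG, a number reached by 37.9% of those windows. The letters GGGCGG, searched on both strands, were found 2 times each in *Plagl1* and *Phlda2* and 0 times in *Peg3*, against 35.7% of all windows with at least 1. TATAAA on either strand was found 1 time, in *Phlda2*, starting 30 bases before the start, and lies in 13.6% of all windows. GGGCGG holds a CG and is counted among them. Of the other members, *Igf2r* has 34 CG in its single window, *Slc22a18* has 2, and the starts of *Igf2*, *Mest* and *Grb10* range from 2 to 24, 8 to 17 and 9 to 45. These are matches of letters and not binding sites.

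In the mutant lines, 4 of the 9 members measured rose on day 2 of OHT and 1 fell, against 4.91% and 1.55% of all 16432 genes tested (6.46% in either direction). The members were chosen with earlier results of these data known, so the shares are background and not a test of the group. *Cdkn1c* rose 3.17-fold, *Plagl1* 2.37-fold, *Igf2* 1.95-fold and *Phlda2* 1.76-fold, and *Peg3* fell to 0.573 of its level before OHT. *Igf2r*, *Mest*, *Slc22a18* and *Grb10* did not pass the test. The mock line had called rises of *Cdkn1c* (3.99-fold) and *Igf2* (2.83-fold), 2 of 9 members against 1.67% of all genes. With 1 array per time, its test takes all its spread from the other lines, and 0 genes of the whole array were called in it once any 1 of those was left out. In the WT lines 0 of 9 members and 0% of all genes were called by limma (0 of 9 members and 7.61% of all genes at an unadjusted p under 0.05). The median log2 change of the 9 members was 0.47 in the mutants, 0.69 in mock cells and 0.06 in the WT lines, beside a median of all genes of -0.0067, 0.0048 and 0.0047. In such bulk RNA, fewer or more cells of a type cannot be told apart from less or more RNA per cell.

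**Figure D1:**
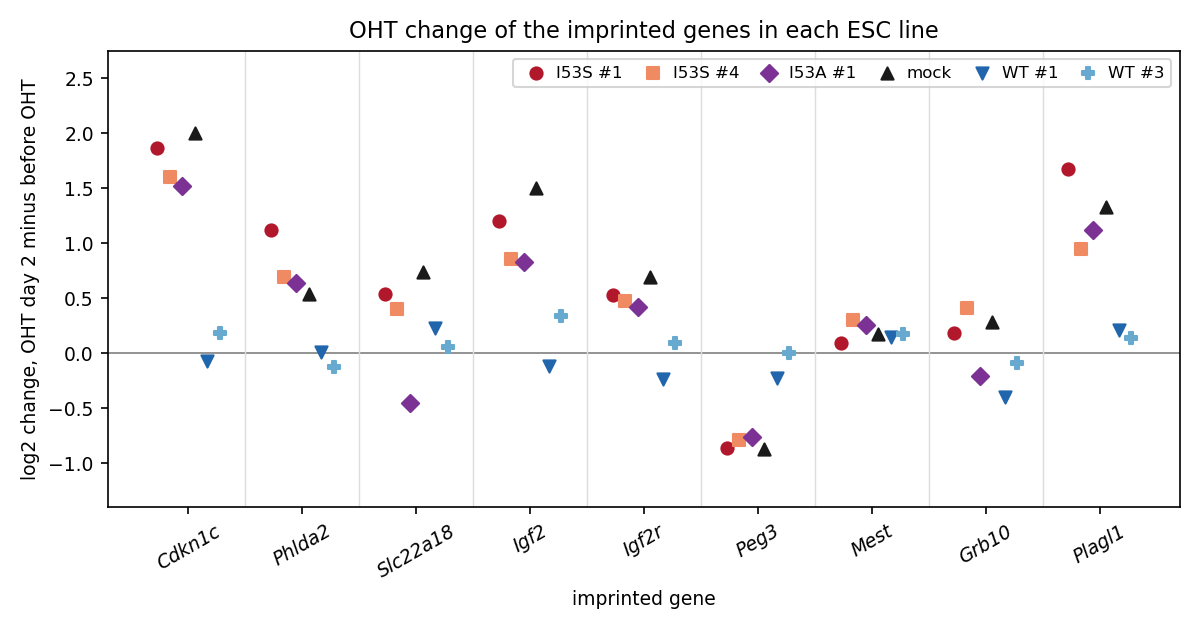
Log2 change of the 9 measured imprinted genes, day 2 of OHT minus before OHT, with 1 point per ESC line (3 mutant lines, the mock line and the 2 WT lines, left to right within each gene). For *Cdkn1c* the mutant and mock lines lie between 1.52 and 2.00 and the WT lines at -0.07 and 0.18, and for *Peg3* the mutant and mock lines lie between -0.87 and -0.76.

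The first group is the *Kcnq1* domain on chromosome 7, where a paternally transcribed antisense RNA keeps neighbouring genes silent on the paternal copy. *Cdkn1c* encodes the cyclin-dependent kinase inhibitor p57Kip2, which restrains growth of the fetus. On day 2 of OHT its log2 signal was 8.69 in the I53S #1 line, 8.98 in the I53S #4 line and 9.06 in the I53A line, against 6.82, 7.38 and 7.54 before OHT in those lines. All 3 arrays on day 2 lay above all 3 before OHT. The mock line read 10.17 on day 2 and 8.18 before OHT, the highest day 2 value of the 6 lines. The WT lines #1 and #3 read 8.15 and 8.07 on day 2 and 8.22 and 7.89 before OHT, with no common direction. The log2 change was 1.66 across mutant lines (SE 0.11, adjusted p = 0.0055 from limma), 2.00 in mock cells (SE 0.19, adjusted p = 0.0329) and 0.06 across WT lines (SE 0.14, adjusted p = 0.965). The call in the mutant lines stood under all 14 alternatives, with adjusted p between 1.05e-06 and 0.0433. The mock call did not stand without any 1 of the 5 remaining lines (adjusted p = 0.0726 without WT #1, 0.0719 without WT #3, 0.0528 without I53S #1, 0.0783 without I53S #4 and 0.0726 without I53A #1).

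The change of *Cdkn1c* in the mutant lines exceeded that in the WT lines by 1.61 (SE 0.18, unadjusted p = 0.000116, adjusted p = 0.088 from limma), which did not pass over all genes. The mock line exceeded the WT lines by 1.94 (SE 0.24, adjusted p = 0.119) and the mutant lines by 0.33 (SE 0.22, adjusted p = 0.768). The level before OHT bears on the differences that involve the mutant lines. The mock line, at 8.18 before OHT, lay between the 2 WT lines. Before OHT the mutant lines averaged 7.24 and the WT lines 8.05, and all 3 mutant lines lay below both WT lines, an order that 10.2% of all genes had in that direction. This difference of -0.81 (SE 0.25) had an unadjusted p of 0.013 and an adjusted p of 0.894. On day 2 the order was turned, with means of 8.91 in the mutant lines and 8.11 in the WT lines (difference 0.80, SE 0.17, adjusted p = 0.1) and all 3 mutant lines above both WT lines, as for 17.8% of all genes. Part of the difference in change between mutant and WT lines therefore lay in the level before OHT and part in the level on day 2. Neither passed the test on its own.

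*Phlda2*, next to *Slc22a18* in the domain, encodes a pleckstrin homology domain protein that limits growth of the placenta. Its log2 signal on day 2 was 10.35, 10.61 and 10.33 in I53S #1, I53S #4 and I53A #1, against 9.23, 9.93 and 9.69 before OHT. The mock line read 10.70 on day 2 and 10.16 before OHT, and the WT lines #1 and #3 read 9.73 and 9.71 on day 2 and 9.73 and 9.84 before OHT. The mutant lines on day 2 were above every WT array. The change was 0.82 across mutant lines (SE 0.12, adjusted p = 0.0219 from limma), 0.54 in mock cells (SE 0.21, adjusted p = 0.241) and -0.06 across WT lines (SE 0.15, adjusted p = 0.968). The rise of *Phlda2* was largest in the I53S #1 line, at 1.12 beside 0.69 and 0.64, and the call was lost without any 1 mutant line (0.66 without I53S #1, 0.88 without I53S #4 and 0.90 without I53A #1, adjusted p = 0.0846, 0.0875 and 0.0772). This call was also lost with the I53S lines as the only mutants. On day 2 the mutant lines were above the WT lines by 0.71 (SE 0.16, adjusted p = 0.114).

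*Slc22a18*, which encodes a transporter of the organic cation family, is read by 2 probe sets that did not move together. On 1417809_at the change was 0.96, 1.05 and -0.46 in I53S #1, I53S #4 and I53A #1, 1.84 in mock cells and 0.20 in both WT lines. On 1427531_a_at it was 0.12, -0.24 and -0.43 in the mutants, -0.36 in mock cells and 0.26 and -0.07 in the WT lines. The I53A line was below 0 on both, and the mock line was above 0 on the first alone. The average change was 0.16 with mutant Ring1B (SE 0.20, adjusted p = 0.676 from limma) and 0.74 in mock cells (SE 0.35, adjusted p = 0.311), and its direction depends on which probe set is taken.

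**Figure D2:**
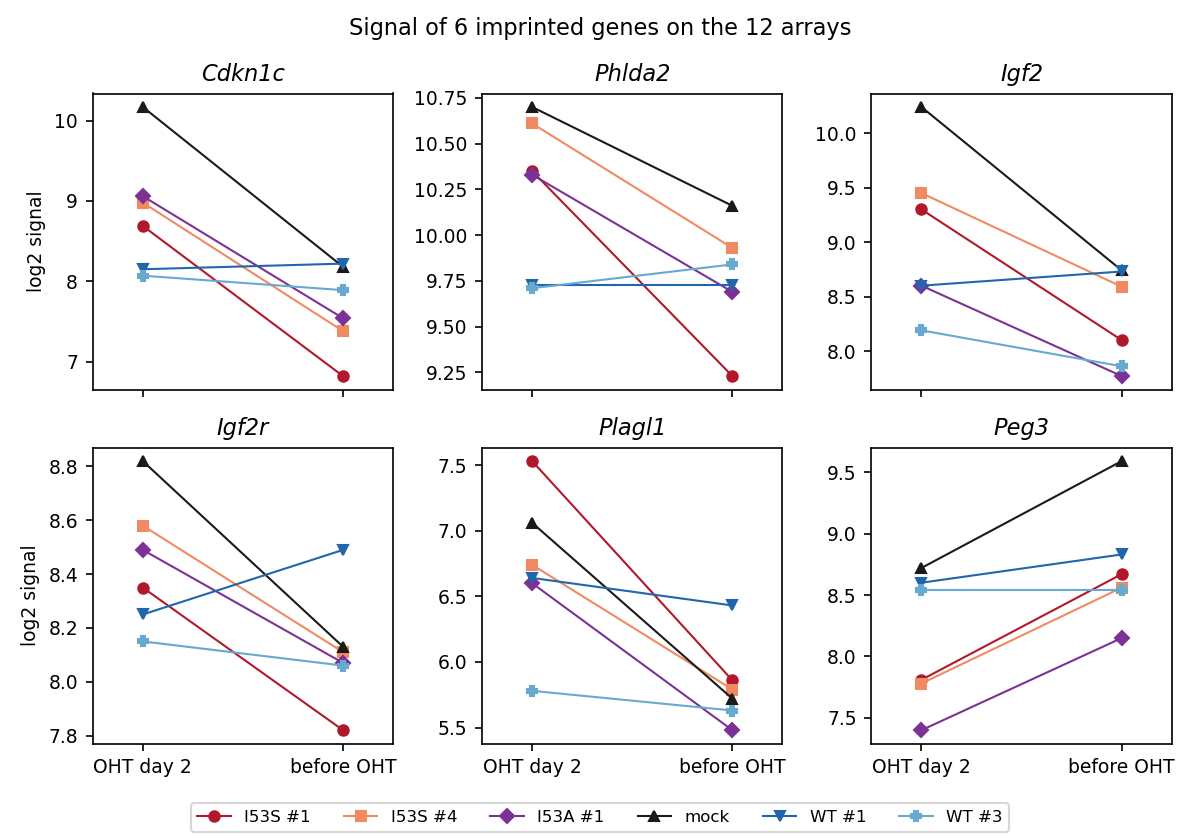
Log2 signal of 6 imprinted genes on day 2 of OHT (left) and before OHT (right), with 1 line for each of the 6 ESC lines and a vertical scale of its own in each panel. *Cdkn1c* in the 3 mutant lines lies between 6.82 and 7.54 before OHT, below both WT lines, and between 8.69 and 9.06 on day 2, above both.

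The second group surrounds insulin-like growth factor 2. *Igf2* encodes the growth factor itself and is expressed from the paternal copy. On its 1 probe set past the filter the log2 signal on day 2 was 9.30, 9.45 and 8.60 in I53S #1, I53S #4 and I53A #1, against 8.10, 8.59 and 7.77 before OHT. The mock line read 10.24 on day 2 and 8.74 before OHT, and the WT lines #1 and #3 read 8.60 and 8.19 on day 2 and 8.73 and 7.86 before OHT. The I53A line was the lowest of the mutant lines at both times, and levels of mutant and WT lines overlapped while their changes did not. The change was 0.96 across mutant lines (SE 0.13, adjusted p = 0.0177 from limma), 1.50 in mock cells (SE 0.23, adjusted p = 0.0463) and 0.11 across WT lines (SE 0.16, adjusted p = 0.935). The mutant call was lost without any 1 mutant line (0.85 without I53S #1, 1.02 without I53S #4 and 1.03 without I53A #1, adjusted p = 0.0902, 0.0821 and 0.077) and with no replicate block (adjusted p = 0.143). It was also lost with the I53S lines as the only mutants. The mock call held under only 3 of 14 alternatives. It was lost without any 1 of the other lines (adjusted p between 0.0738 and 0.0994), with the I53S lines as the only mutants (0.0934), with values as deposited (0.0578), with the brightest probe set (0.0507) and with no replicate block (0.293). With no filter, which averages in the dim probe set, the mock change was 0.96 (adjusted p = 0.0575), and with centred arrays 0.99 (adjusted p = 0.0634). The other probe set of *Igf2*, 1415931_at, reached at most 3.94 and did not pass the filter.

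*H19*, a non-coding RNA expressed from the maternal copy that shares enhancers with *Igf2*, has no probe set of its own. The probe set 1448194_a_at is annotated to *H19* and to *Mir675*, the microRNA processed from it, and its values are given for the probe set and not for either gene. On day 2 it read 9.87, 7.33 and 7.13 in I53S #1, I53S #4 and I53A #1, against 8.37, 7.16 and 7.04 before OHT. The mock line read 10.98 on day 2 and 9.30 before OHT, and WT lines #1 and #3 read 9.21 and 6.63 on day 2 and 8.91 and 6.47 before OHT. The change was thus large in the mock line (1.68) and the I53S #1 line (1.50) and small in the other 4 lines (0.17, 0.09, 0.30 and 0.16), a split that runs across the mutant lines. The WT lines differed from each other before OHT on this probe set more than any line changed. It was left out of the fit, which used probe sets with 1 symbol.

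*Igf2r*, on chromosome 17, encodes the receptor that takes up Igf2 for degradation and is expressed from the maternal copy in most tissues. Both probe sets had changes above 0 in each mutant line and in the mock line. On 1424111_at the changes were 0.61, 0.60 and 0.65 in I53S #1, I53S #4 and I53A #1, 0.74 in mock cells, and -0.26 and 0.18 in the WT lines. On 1424112_at they were 0.44, 0.34 and 0.18 in the mutants, 0.63 in mock cells and -0.21 and 0.00 in the WT lines. The average change was 0.47 across mutant lines (SE 0.10, adjusted p = 0.0541 from limma), 0.69 in mock cells (SE 0.17, adjusted p = 0.119) and -0.07 across WT lines (SE 0.12, adjusted p = 0.947). It was thus just outside the call in the mutant lines. It passed with a filter on the mean signal (adjusted p = 0.0203) and with trended and robust priors (0.00319). A further probe set, 1440979_at, is annotated to *Airn* and *Igf2r* together and reached at most 4.26.

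*Grb10*, on chromosome 11, encodes an adaptor protein that inhibits signalling of the insulin and insulin-like growth factor receptors. Its 3 probe sets differed. On 1425458_a_at the log2 signal on day 2 was 11.41, 11.46 and 11.56 in I53S #1, I53S #4 and I53A #1, against 11.08, 11.14 and 11.35 before OHT. The WT lines #1 and #3 read 8.86 and 11.08 on day 2 and 9.09 and 11.15 before OHT, so that the WT #1 line stood below all other lines at both times. On this probe set and on 1425457_a_at the change was above 0 in all 3 mutant lines and below 0 in both WT lines, as it was for 3.97% of all genes at the gene level. With values as deposited, 1425457_a_at changed by -0.02 in the I53A line and lost this order. On 1430164_a_at the I53A line changed by -0.90 and the I53S lines by 0.03 and 0.26. The average change was 0.13 across mutant lines (SE 0.14, adjusted p = 0.642 from limma), 0.28 in mock cells (SE 0.25, adjusted p = 0.587) and -0.24 across WT lines (SE 0.18, adjusted p = 0.84).

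**Figure D3:**
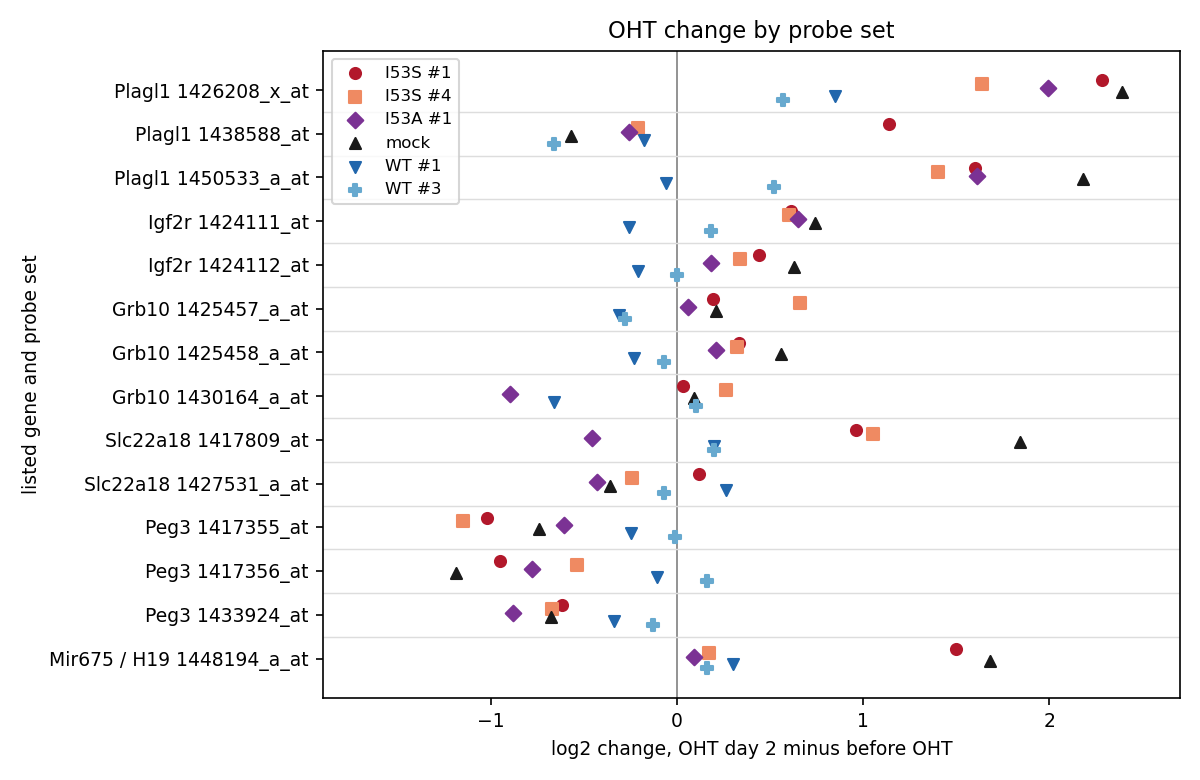
Log2 change of single probe sets, day 2 of OHT minus before OHT, with 1 point per ESC line; each row is a probe set past the filter, for the members with more than 1 such probe set and for the probe set annotated to both *Mir675* and *H19*. The 3 *Peg3* rows lie between -1.19 and -0.54 in the mutant and mock lines, while 1438588_at of *Plagl1* is above 0 in the I53S #1 line alone.

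The third group holds paternally expressed genes of other domains. *Plagl1*, on chromosome 10, encodes the zinc finger transcription factor Zac1, which in mice is known to regulate other imprinted genes, *Cdkn1c* and *Igf2* among them. On 1426208_x_at the log2 signal on day 2 was 11.32, 10.96 and 10.35 in I53S #1, I53S #4 and I53A #1, against 9.05, 9.32 and 8.36 before OHT. The mock line read 10.95 on day 2 and 8.55 before OHT, and the WT lines #1 and #3 read 9.89 and 9.35 on day 2 and 9.04 and 8.77 before OHT. All 6 lines were higher on day 2 on this probe set, with changes of 2.28, 1.64 and 1.99 in the mutants, 2.39 in mock cells and 0.85 and 0.57 in the WT lines. On 1450533_a_at the changes were 1.60, 1.40 and 1.61 in the mutants, 2.18 in mock cells and -0.06 and 0.52 in the WT lines. This probe set was dim too, reading at most 5.81. Before OHT it lay below the filter value of 3.94 in I53S #4 (3.54), I53A #1 (3.21), mock (3.45) and WT #3 (3.42). The third probe set, 1438588_at, read at most 5.64 and changed by 1.14, -0.21 and -0.26 in the mutant lines. Averaged over the 3, *Plagl1* changed by 1.24 with mutant Ring1B (SE 0.15, adjusted p = 0.0137 from limma), 1.33 in mock cells (SE 0.26, adjusted p = 0.0764) and 0.17 across WT lines (SE 0.19, adjusted p = 0.895). Taken by the probe set of the highest mean, the change was 1.97 across mutant lines (adjusted p = 0.00705) and 2.39 in the mock line (adjusted p = 0.0357), both called. The mutant call was lost without I53A #1 (1.31, adjusted p = 0.0682) and with no replicate block (adjusted p = 0.0657). It was also lost with the I53S lines as the only mutants.

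*Peg3*, in another domain of chromosome 7, encodes a zinc finger protein and was the 1 member that fell. Its average log2 signal on day 2 was 7.81, 7.78 and 7.40 in I53S #1, I53S #4 and I53A #1, against 8.67, 8.56 and 8.15 before OHT. The mock line read 8.72 on day 2 and 9.59 before OHT, the highest of the lines at that time, and the WT lines #1 and #3 read 8.60 and 8.54 on day 2 and 8.83 and 8.54 before OHT. The mutant lines on day 2 lay below every other array. The change was -0.80 across mutant lines (SE 0.09, adjusted p = 0.0123 from limma), -0.87 in mock cells (SE 0.16, adjusted p = 0.0678) and -0.11 across WT lines (SE 0.11, adjusted p = 0.889). The fall of *Peg3* was alike in the 3 mutant lines (-0.86, -0.79 and -0.76) and was seen on all 3 of its probe sets past the filter (-0.93, -0.76 and -0.72, adjusted p = 0.0321, 0.0391 and 0.0319). With no filter, which adds 2 dim probe sets to the average, the mutant change was -0.49 (adjusted p = 0.029). The call was lost without any 1 mutant line (-0.77 without I53S #1, -0.81 without I53S #4 and -0.83 without I53A #1, adjusted p = 0.0753, 0.074 and 0.065). It was also lost with the I53S lines as the only mutants. On day 2 the mutant lines were below the WT lines by 0.91, with means of 7.66 and 8.57 (difference -0.91, SE 0.18, adjusted p = 0.0809). The 2 further *Peg3* probe sets read at most 2.85 and 3.06 and did not pass the filter.

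*Mest*, on chromosome 6, encodes a membrane protein of the alpha/beta hydrolase family. Its changes were 0.09, 0.30 and 0.26 in I53S #1, I53S #4 and I53A #1, 0.17 in mock cells, and 0.15 and 0.17 in the WT lines. The change in the mutant lines exceeded that in the WT lines by 0.06 (SE 0.14, adjusted p = 0.912 from limma). Its log2 signal lay between 8.96 and 9.83 on all 12 arrays.

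Fitted as single probe sets, 8 of the 17 member probe sets were called in the mutant lines, against 3.76% of the 30374 tested. These were the probe sets of *Cdkn1c*, *Igf2* and *Phlda2*, the 3 of *Peg3* and 2 of the 3 of *Plagl1*. In mock cells 0 of 17 and 0% of all probe sets were called by limma in this fit (11 of 17 and 17.6% of all at an unadjusted p under 0.05). Without a WT line 3 of the 17 were called, and without a mutant line 0. The calls over all probe sets in those settings were not counted. In the gene-level fit, the calls over all genes fell from 1062 to 733 without a WT line. Without a mutant line they fell to between 153 and 194. At the gene level, 2 of the 5 measured members that are chiefly maternally expressed rose in the mutant lines (*Cdkn1c* and *Phlda2*). Of the 4 paternally expressed members 2 rose (*Igf2* and *Plagl1*) and 1 fell (*Peg3*). Of all genes tested, 4.91% rose and 1.55% fell.

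The test of the difference between the changes in mutant and WT lines called 0 of 9 members and 0% of all genes by limma. At an unadjusted p under 0.05, 5 of 9 members were higher (*Cdkn1c*, *Phlda2*, *Igf2*, *Igf2r* and *Plagl1*) and *Peg3* was lower, against 7.58% and 5% of all genes. The same 5 changed more in each mutant line than in either WT line, which 16.1% of all genes did, and the change of *Peg3* lay below both WT lines in each mutant line, as for 15% of all genes. The differences were 1.07 for *Plagl1* (SE 0.24, adjusted p = 0.19), 0.88 for *Phlda2* (SE 0.20, 0.19), 0.86 for *Igf2* (SE 0.21, 0.209), 0.54 for *Igf2r* (SE 0.16, 0.264) and -0.69 for *Peg3* (SE 0.15, 0.182). Between the mock and WT lines they were 1.39 for *Igf2* (SE 0.28, adjusted p = 0.16), 1.16 for *Plagl1* (SE 0.32, 0.23), 0.76 for *Igf2r* (SE 0.21, 0.231), 0.60 for *Phlda2* (SE 0.26, 0.381) and -0.76 for *Peg3* (SE 0.20, 0.212). Between the mock and mutant lines the largest was that of *Slc22a18* (0.57, SE 0.40, adjusted p = 0.782), followed by *Igf2* (0.54, SE 0.26, adjusted p = 0.683). Between mock and WT lines 0 of 9 members and 0% of all genes were called (4 higher and 1 lower at an unadjusted p under 0.05, against 14.4% of all genes), and between mock and mutant lines likewise 0 and 0% (0 members and 8.05% of all genes unadjusted). These comparisons share the WT or the mutant arrays. A missed threshold does not show that the lines with mutant Ring1B and those without Ring1B responded alike.

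Levels themselves, set between mutant and WT lines, gave 0 of 9 called members on day 2, against 0.682% of all genes, and 0 before OHT, against 0%. At an unadjusted p under 0.05 there were 4 members on day 2 (*Cdkn1c*, *Phlda2*, *Igf2* and *Peg3*; 15.5% of all genes) and 1 before OHT (*Cdkn1c*; 5.25%). On day 2 *Peg3* was below both WT lines in all 3 mutant lines, as 16.4% of all genes were, and *Phlda2* and *Igf2r* were above, like *Cdkn1c*.

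Over the 12 arrays the signal of *Cdkn1c* followed that of *Igf2r* (Pearson r = 0.94), *Phlda2* (0.89), *Igf2* (0.83) and *Plagl1* (0.72) among the members, and not that of *Slc22a18* (0.35), *Mest* (0.31), *Grb10* (0.08) or *Peg3* (-0.26). Taken by OHT change over the 6 lines, r was 0.97, 0.88, 0.96 and 0.95 for *Igf2r*, *Phlda2*, *Igf2* and *Plagl1*. By that measure it was 0.34 for *Slc22a18*, 0.15 for *Mest*, 0.75 for *Grb10* and -0.95 for *Peg3*. The arrays share OHT treatment in pairs of 1 line, so these values are a description. The share of all genes that reach such values was not determined. Among all genes the closest to *Cdkn1c* in signal were *Pik3r1* (r = 0.96), *Irx4* (0.96) and *Mex3b* (0.95). These 3, outside the members, had r of 0.92, 0.96 and 0.97 by OHT change. They are genes of a phosphoinositide 3-kinase regulatory subunit, a homeobox protein and an RNA-binding protein. *Irx4* changed by 1.94, 1.30 and 1.50 in I53S #1, I53S #4 and I53A #1, 1.46 in mock cells and 0.18 and 0.37 in the WT lines. *Cdkn1c* was also set beside the other inhibitors of its family. *Cdkn1a*, the gene of p21, changed by 0.36 in the mutant lines and *Cdkn1b*, the gene of p27, by -0.31, and neither passed (SE 0.09 and 0.15, adjusted p = 0.0874 and 0.28 from limma).

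Neighbours and other imprinted genes give the surroundings of the 10, and their counts and those of the lists after them stand beside 4.91% of all genes that rose in the mutant lines and 1.55% that fell. Of 12 further genes in and beside the *Kcnq1* domain, 2 rose in the mutant lines and 0 fell, with a median change of -0.03. *Ascl2*, a transcription factor gene needed for the placenta, rose by 0.58 (SE 0.09, adjusted p = 0.0274 from limma) and *Osbpl5*, an oxysterol-binding protein gene, by 0.82 (SE 0.11, adjusted p = 0.0163). *Kcnq1ot1*, the antisense RNA of the domain, changed by -0.08, 0.12 and -0.44 in I53S #1, I53S #4 and I53A #1, and by -0.50 in mock cells and -0.32 and 0.17 in the WT lines; it was picked after its values were seen. Of 19 other paternally expressed genes 2 rose and 0 fell in the mutant lines, at a median of 0.13. They were *Ndn*, the necdin gene (1.04, SE 0.11, adjusted p = 0.00941), and *Sfmbt2*, itself a Polycomb group gene (0.63, SE 0.09, adjusted p = 0.0189). Of 17 other maternally expressed genes 2 rose and 1 fell, at a median of 0.08. The calcitonin receptor gene *Calcr* (0.77, SE 0.12, adjusted p = 0.0261 from limma) and the ankyrin repeat gene *Asb4* (0.63, SE 0.12, adjusted p = 0.0371) rose. The ubiquitin ligase gene *Ube3a* fell (-0.41, SE 0.08, adjusted p = 0.049). *Calcr* and *Asb4* were dim, with levels before OHT near the filter value of 3.94. In I53S #1, I53S #4 and I53A #1 before OHT, *Calcr* read 4.16, 4.22 and 3.71 and *Asb4* 4.03, 3.79 and 3.77. On day 2 the same lines read 4.62, 5.12 and 4.66 for *Calcr* and 4.41, 4.44 and 4.63 for *Asb4*. Whether the low signal affected these 2 rises was not tested. In the mock line *Ndn* (1.20) and *Sfmbt2* (1.24) were called too (adjusted p = 0.0485 and 0.0366).

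**Figure D4:**
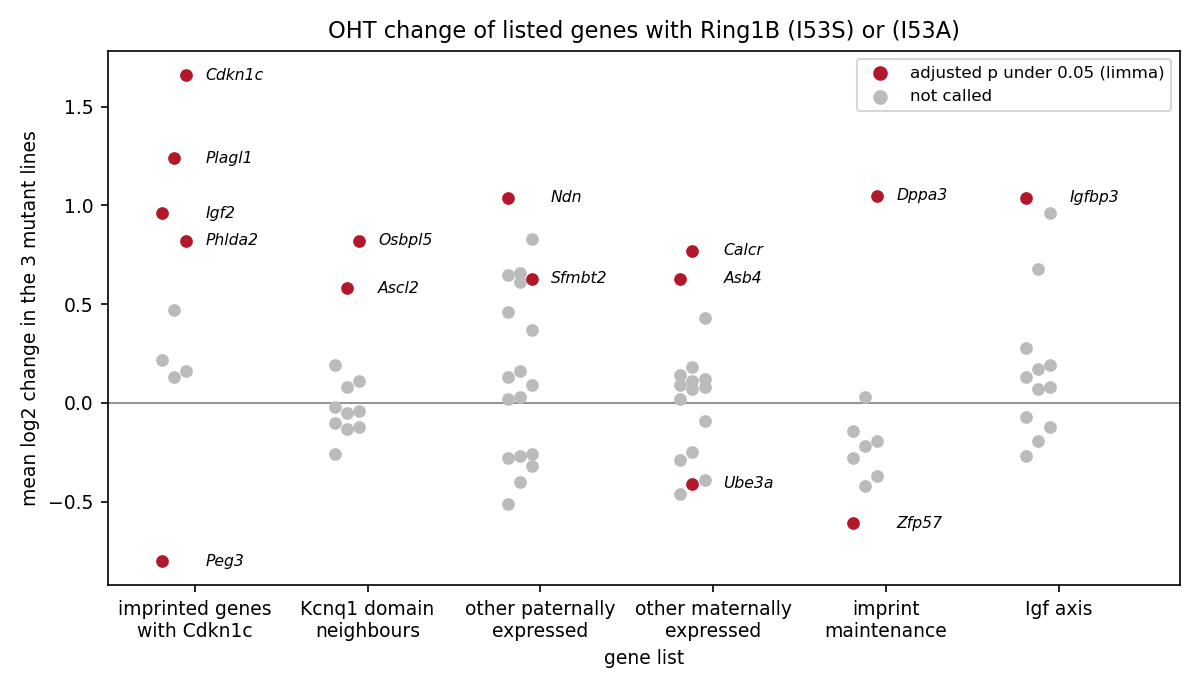
Mean log2 change in the 3 mutant lines, day 2 of OHT minus before OHT, for each measured gene of 6 lists (1 point per gene, red where the adjusted p from limma was under 0.05). The called genes of the first list are *Cdkn1c* at 1.66, *Plagl1* at 1.24, *Igf2* at 0.96, *Phlda2* at 0.82 and *Peg3* at -0.80, and most genes of the other lists lie between -0.5 and 0.5.

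Among 9 genes that protect or set imprints 1 rose and 1 fell, at a median of -0.22 and with 2 of the 9 above 0. *Dppa3*, whose product protects maternal methylation in the zygote, rose by 1.05 (SE 0.09, adjusted p = 0.00663 from limma), and *Zfp57*, the zinc finger protein gene that holds methylation at imprinting control regions, fell by 0.61 across mutant lines. Its log2 signal was 6.63, 6.97 and 7.05 on day 2 in I53S #1, I53S #4 and I53A #1 against 7.46, 7.64 and 7.38 before OHT, and 7.57 and 7.78 on day 2 in the WT lines against 7.30 and 7.57 before OHT (mutant change -0.61, SE 0.12, adjusted p = 0.0425). Of 13 further genes of the Igf axis 1 rose, *Igfbp3*, which encodes a binding protein of the growth factors (1.04, SE 0.09, adjusted p = 0.00677), a share near the 4.91% of all genes.

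Markers of other cells moved with these changes in some lines. The median log2 change of 17 fibroblast markers (of 19 on the array) was 0.62, 0.25 and 0.21 in I53S #1, I53S #4 and I53A #1, 0.69 in mock cells, and 0.02 and 0.05 in the WT lines. Their summed log2 level on day 2 was 13.07, 12.31 and 11.31 in the mutant lines against 12.36, 12.06 and 11.21 before OHT, 12.98 against 12.32 in mock cells, and 11.27 and 11.52 against 11.23 and 11.39 in the WT lines. No marker was at 0, and 2 were called in the mutant lines, *Thy1* (0.68) and *Lox* (0.49, adjusted p = 0.0186 and 0.0422). The 2 lines in which the *H19* and *Mir675* probe set changed by over 1 were the 2 with the largest fibroblast marker changes. Before OHT that probe set read 8.37, 7.16 and 7.04 in I53S #1, I53S #4 and I53A #1. It read 9.30 in mock cells and 8.91 and 6.47 in WT lines #1 and #3. Its levels thus did not keep the order of the summed fibroblast levels, as WT #1 stood above I53S #1. In the I53A line, whose summed level on day 2 was close to that of the WT lines but whose median marker change of 0.21 was above theirs, *Cdkn1c* changed by 1.52, *Plagl1* by 1.12, *Igf2* by 0.83, *Phlda2* by 0.64 and *Peg3* by -0.76. The part of fibroblast RNA in these changes was not tested.

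Of 10 trophectoderm markers 5 rose in the mutant lines and 0 fell, against 4.91% and 1.55% of all genes, at a median of 0.52, with *Gata3* at 1.72, *Eomes* at 0.82 and *Krt7* at 0.82 (adjusted p between 0.0137 and 0.0264 from limma). *Gata3* changed by 0.77 and 1.35 in the WT lines too (1.06, SE 0.26, adjusted p = 0.528), and its change in the mutant lines exceeded that by 0.66 (SE 0.33, adjusted p = 0.493). Of the 10 trophectoderm markers 8 were above 0, and at an unadjusted p under 0.05 from limma 5 were higher and 0 lower. Of 11 primitive endoderm markers 3 rose and 0 fell, at a median of 0.44: *Amn* (1.88), *Col4a1* (0.56) and *Gata6* (0.52, adjusted p between 0.00617 and 0.0297). Among these 11, 9 were above 0, and at an unadjusted p under 0.05 from limma 6 were higher and 1 lower. Of 12 undifferentiated ESC markers 1 rose, *Klf4* (0.55, adjusted p = 0.0354), and 0 fell, at a median of -0.26 and with 3 of the 12 above 0. At an unadjusted p under 0.05 from limma, 8 of the 12 were lower and 1 higher, against 9.97% and 13.7% of all genes. *Cdkn1c*, *Phlda2* and *Igf2* are known to be active in the placenta, and the part of extraembryonic cells in their changes was not tested. In the mutant lines the median trophectoderm marker changes were 0.49, 0.56 and 0.53, with 0.91 in mock cells and 0.06 and 0.11 for the WT lines.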

How the data were processed

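Total RNA of 6 ESC lines was hybridised to Affymetrix mouse genome arrays. The signals are log2 values deposited by the authors. Per the labels, Affymetrix Expression Console with RMA made them (no version is given in the sources used here), whereas the supporting methods name MAS5 followed by quantile normalization. Deposited log2 values had array medians between 4.66 and 5.67, and were quantile normalized here. Without 64 controls, 45037 of 45101 probe sets remained. Among them 34945 had 1 gene symbol, 932 several and 9160 none, and genes were named only from those with 1, with symbols updated through the mouse gene table (18032 found, 162 not). Probe sets whose highest signal passed the 30th percentile of all values (3.94) were averaged per gene (16432 genes).

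All arrays were fitted with limma 3.58.1 (statmod 1.5.0, R 4.3.3; lmFit and eBayes, two-sided), blocking on the line, with separate OHT effects for mutant, mock and WT classes (3 residual and 2.79 prior degrees of freedom). Levels were fitted by class over the 6 arrays of each time. Benjamini-Hochberg adjustment ran over every gene, or over all 30374 probe sets, and results were called under 0.05. The mock class is 1 line and takes its spread from the others. Pairing follows the cell line: deviations from the class mean correlated within a line at 0.27 (WT) and 0.36 to 0.43 (mutant). Precision is limited by the number of arrays. The fit was tested on simulated data. Folds are 2 to the power of the log2 change.

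The members and the gene lists were chosen with earlier results of these data known. The genes named are the 10 members, of each other list up to 3 called genes with the largest change in the mutant lines (with none called, the 2 with the smallest p), the 3 genes closest to *Cdkn1c* by Pearson correlation, *Rnf2* and *Ring1*. The lists are *Kcnq1* domain neighbours, other paternally and maternally expressed imprinted genes, imprint maintenance factors, Igf axis genes, other Cip/Kip inhibitors, and markers of undifferentiated ESCs, fibroblasts, trophectoderm and primitive endoderm. Alternatives were values as deposited, median centring, no filter or a filter on the mean, the probe set of the highest mean, trended and robust priors, only I53S lines as mutants, a log2 change over 0.5, no block, and each line left out.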

Additional observations from a re-analysis of the deposited data

Results flagged for a closer look

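2 probe sets of *Grb10* changed in opposite directions in mutant and WT lines. On 1425458_a_at the changes were 0.33, 0.32 and 0.21 in I53S #1, I53S #4 and I53A #1 and -0.23 and -0.07 in the WT lines, and the difference of 0.44 did not pass the test over all probe sets (adjusted p = 0.379 from limma). On 1425457_a_at they were 0.19, 0.66 and 0.06 in the mutant lines and -0.31 and -0.28 in the WT lines, with a difference of 0.60 (adjusted p = 0.408). With values as deposited, the I53A line changed by -0.02 on 1425457_a_at, and the opposite directions did not hold there. Of all genes, 3.97% were above 0 in all 3 mutant lines and below 0 in both WT lines, and the third probe set of *Grb10* did not show this order.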

How the results depend on the processing

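The count of members called in the mutant lines was 5, and it was 1 with I53S #1 and #4 as the only mutant lines, 3 with no replicate block, and 1 to 5 with 1 line left out. The calls over all genes fell with it, with 153, 563 and 153 to 733 in those settings against 1062. *Cdkn1c* was among the called genes in each of these. For the mock line the count was 2, and it was 1 with centred arrays, 1 with no filter, 1 with no replicate block, 4 with a filter on the mean, 6 with trended and robust priors, 0 with I53S #1 and #4 as the only mutant lines and 0 with any 1 line left out. Over all genes the mock line had 275 calls, and 303, 255, 97, 883, 1340, 0 and 0 in those settings in turn. Differences in change between mutant and WT lines, 0 called, became 1 with a filter on the mean (*Cdkn1c*) and 5 with trended and robust priors. Over all genes these settings called 47 and 272, against 0. Between mock and WT lines, 0 called, the counts became 1 (*Cdkn1c*) and 4, with 17 and 453 of all genes called against 0. Levels of mutant against WT lines on day 2, 0 called, became 1 with centred arrays (*Peg3*) and 3 with trended and robust priors. Over all genes 173 and 348 were called there, against 112. Of the 17 member probe sets 8 were called in the mutant lines, 0 with the I53S lines alone, 2 with no replicate block, and 0 to 3 with 1 line left out. The calls over all probe sets in those settings were not counted. The cause of these shifts was not tested.

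The values that turned sign were not called in either setting. Taking each gene by its brightest probe set on average, *Slc22a18* was -0.36 in the mock line and -0.19 in the mutant lines. Without I53S #1 it was -0.02 in the mutant lines (up to 0.47 with another line left out), and *Grb10* was -0.01 without I53S #4 (up to 0.30 with another line left out). With values as deposited, *Mest* was -0.24 and *Grb10* -0.10 in the mock line, where the median of all genes was -0.34. That setting also moved the median of all genes by -0.13 in the mutant lines and turned the calls there from 807 higher and 255 lower to 540 higher and 571 lower, while the same 5 members were called. In the mock line it gave 175 higher and 747 lower genes against 212 and 63, with *Cdkn1c* and *Peg3* called. A filter on the mean called 1777 genes and trended and robust priors 2219 in the mutant lines, against 1062. Of the values of single members followed under the alternatives, 436 kept their direction and their side of the threshold, 33 lost a call, 25 gained one and 6 turned sign. This tally took the mutant and mock changes of every measured member. Differences between classes and levels were taken for some members only, and the WT changes for none.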
